A study of Mus musculus with 10 samples.

Results

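The genes described here are 9 members of the AP-1 family of transcription factors and of the leucine zipper factors closest to it: Fos, Fosb, Fosl1, Fosl2, Jun, Junb, Jund, Atf3 and Maff. They were taken by gene symbol from a deposited expression table of 36172 mouse genes, and all 9 were found and tested among 14253 genes. RNA sequencing covered 10 libraries of cells that grew out of the left atrial appendage, the ear-shaped pouch on that chamber of the heart, in C57BL/6 mice aged 8 to 12 weeks. Trypsin and 0.1% collagenase D were applied to the tissue for 5 min, 3 times over. Type A was primary cells from strong digestion (0.25% trypsin), sorted as c-kit+ and CD45-, and type B was primary cells from weak digestion (0.05% trypsin), sorted as c-kit+ and CD45+. The receptor c-kit marks many progenitor cells, and CD45 marks white blood cells. Types C1, C2 and C3 were grown on from B: C1 at passage 6 was c-kit+ and CD45-, C2 at passage 8 and C3 at passage 10 were c-kit- and CD45-. Each type had 2 libraries, and no genetic change or drug is named for any of them. Whether the libraries of a type stem from different animals or dishes is not said in the labels. The p-values therefore cover only the spread among these samples, and that spread may be technical. From B to C1 passage and the CD45 sort changed together, and from C1 to C2 or C3 passage and the c-kit sort did. A and B differed in both trypsin strength and the CD45 sort, and A and C1 in both origin and passage. Within each of these pairs of types such factors cannot be told apart.

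AP-1 is a dimer of basic leucine zipper proteins that binds DNA at the sequence TGAGTCA or close to it. Fos proteins (Fos, Fosb, Fosl1 or Fra-1, Fosl2 or Fra-2) need a Jun partner, while Jun proteins (Jun, Junb, Jund) can also pair among themselves. Fos, Fosb, Jun, Junb, Atf3 and Maff are immediate early genes: serum, growth factors, mechanical strain and the handling of tissue switch them on through MAP kinases without new protein synthesis. In the heart, AP-1 genes are known from the response of myocytes and fibroblasts to strain and injury.

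Promoters of immediate early genes are known to carry short elements bound by CREB and AP-1 factors, so 4 of them are shown. RefSeq windows (build GRCm38.p6) were matched for 8 of the 9 genes, Fosl1 being the exception. Each sequence below is the 120 bases before the start site of a gene that was lower in C1 than in B, read 5′ to 3′ on the strand of the gene. Capitals mark TGACG, the core of the cAMP response element, on either strand, or TGACATCA, a variant AP-1 site.
Fos, chr12:85473770-85473889, plus strand: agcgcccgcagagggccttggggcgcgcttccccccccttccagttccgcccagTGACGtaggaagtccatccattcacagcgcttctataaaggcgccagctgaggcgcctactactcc
Jun, chr4:95052223-95052342, minus strand: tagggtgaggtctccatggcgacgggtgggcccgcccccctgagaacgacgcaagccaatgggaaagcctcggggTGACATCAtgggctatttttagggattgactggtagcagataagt
Junb, chr8:84978749-84978868, minus strand: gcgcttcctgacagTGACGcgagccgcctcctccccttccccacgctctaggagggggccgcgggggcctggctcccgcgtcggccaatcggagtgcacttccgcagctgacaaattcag
Atf3, chr1:191183334-191183453, minus strand: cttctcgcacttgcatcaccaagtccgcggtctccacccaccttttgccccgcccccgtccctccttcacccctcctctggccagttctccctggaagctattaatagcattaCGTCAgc
The search covered 250 bases before the start on both strands. Counted from the start site, TGACG lay at -129 to -125 and -66 to -62 in Fos, -106 to -102 in Junb and -7 to -3 in Atf3, and TGACATCA at -45 to -38 in Jun. TGACG also lay at -60 to -56 in Fosb, whose window belongs to a start inside the annotated gene. TGAGTCA and the CArG box, the site of serum response factor, were in none of the windows of the 8 genes. Bases further upstream than these 250 were not searched, so sites lying there would have been missed. Maff, which was not called lower in C1, had TGACGTCA, which contains TGACG, at -29 to -22 in 1 of its 3 windows. Another Maff window held TGACATCA at -45 to -38 and TGACG at -122 to -118, so these motifs were not restricted to the genes that were lower. Of 32851 promoter windows of this length, 4.46% held TGAGTCA, 1.55% TGACGTCA, 1.47% a CArG box, 17.8% TGACG and 2.93% TGACATCA. The last 2 motifs were added after the sequences had been seen. A match is a run of letters and not a measured site.

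The deposited values are log2 values with the median of each gene over the 10 libraries taken away. A value of 1 therefore means a level 2-fold above that gene's own median. The level itself was not known for any of the 9 genes, so their values cannot be ranked against each other. The lowest readable value in the table is 1 normalized read, and on that reading the highest library held at least 151 normalized reads for Atf3, 70.2 for Fosb and 58.6 for Fosl1. For the other 6 genes the same bound was between 2.00 and 9.91, and the depth behind their values is unknown. The depth of the libraries, read from the spacing of low values, ran from 0.436 in B replicate 1 to 5.03 in C3 replicate 2 relative to the authors' scaling, with both C3 libraries deepest (3.86 and 5.03). Total counts per library are not known.

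Marker genes of other cell types differed between the libraries. The mean of 14 macrophage markers was 10.1 in both B libraries and between -0.995 and 0.09 in the 6 C libraries. In type A it was 0.50 in replicate 1 and 4.49 in replicate 2, with 14 of 14 markers higher in replicate 2. Ptprc, the gene of CD45, stood at 2.74 and 6.35 in the 2 A libraries labelled CD45-, against 11.5 and 11.4 in B and 0.01 or less in every C library. Kit, the gene of c-kit, was lowest in C2 replicate 1 and both C3 libraries (-2.71 in each), and within A it was -0.96 and 3.47. The heart muscle genes Myh6 and Myh7 were listed at 0 in every library, but other heart muscle genes were not. Of 10 heart muscle markers 5 were tested, and from C1 to C3 2 of these were called higher and 1 lower. Among them, Myl7 stood at 5.65 and 5.37 in C3 and at 0.42 or less elsewhere. Epicardial and mesothelial markers (10 genes) averaged 3.04 and 3.02 in C3, against 0.69 or less elsewhere, and 12 fibroblast markers averaged -2.66 and -3.34 there. The part of these differences in the AP-1 values was not tested, and in bulk RNA fewer cells of a type and less RNA per cell cannot be told apart.

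**Figure D1:**
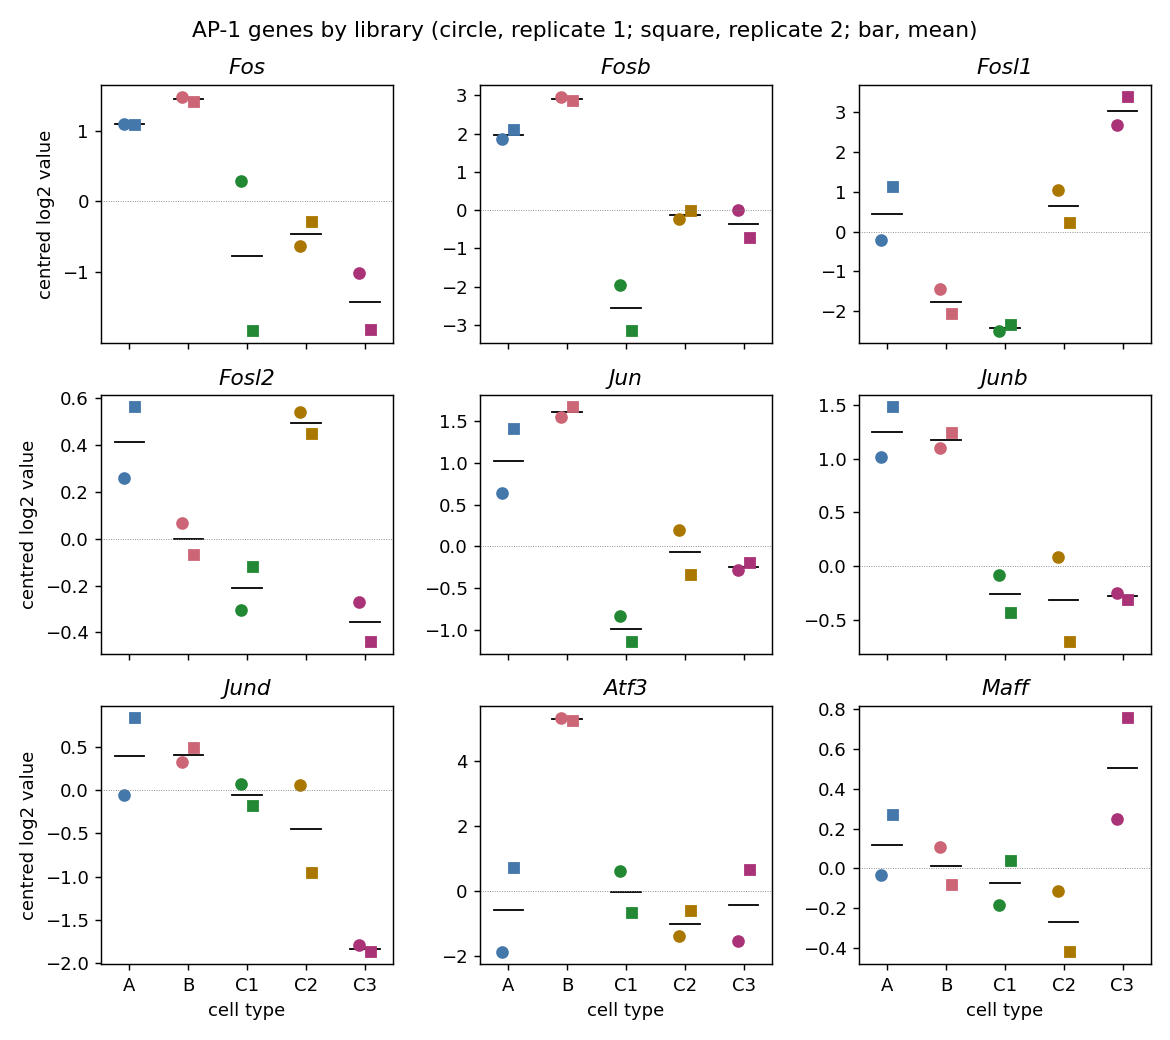
Deposited log2 value, centred on the median of each gene, of the 9 genes (1 panel each, with its own axis range) in the 5 cell types; circles are replicate 1, squares replicate 2 and bars the mean of the 2. Fos, Fosb, Jun and Junb are highest in A and B, Atf3 stands apart in B at 5.35 and 5.26, and Fosl1 is highest in C3 at 2.65 and 3.37.

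Fos (Entrez gene 14281, chr12:85473890-85477274 in GRCm38.p6), the founding member of the family, was high in both primary types. Its values were 1.09 and 1.08 in A and 1.48 and 1.40 in B. They were 0.28 and -1.83 in C1, -0.63 and -0.28 in C2, with -1.01 and -1.82 in C3. All 4 primary libraries lay above all 6 passaged ones, and the C1 libraries were 2.12 apart, the widest gap of the gene. The order of the means was B, A, C2, C1, C3. The neighbours B and A, C2 and C1, and C1 and C3 were not called different, and A and C2 were not compared by a test.

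Fosb (14282, chr7:19302696-19310118) had the same order of primary above passaged cells with a wider range. Its values were 1.87 and 2.08 in A and 2.96 and 2.86 in B. They fell to -1.96 and -3.17 in C1 and stood at -0.23 and -0.01 in C2 and at 0.01 and -0.72 in C3. The 2 C1 libraries were the lowest of the 10, and C2 and C3 overlapped between the primary cells and C1.

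Fosl1 (14283, chr19:5447698-5455938) encodes Fra-1, a Fos protein without the transactivation domain of Fos that is typical of migrating and transformed cells. In A it was -0.22 and 1.12, against -1.44 and -2.07 in B, with -2.50 and -2.35 in C1. In the later passages it was 1.03 and 0.22 in C2 and 2.65 and 3.37 in C3. Both C3 libraries lay above the other 8, C1 was lowest, and A and C2 overlapped.

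Fosl2 (14284, chr5:32136472-32157840), which encodes Fra-2, varied little. It was 0.26 and 0.56 in A, 0.07 and -0.07 in B, with -0.30 and -0.12 in C1. It was 0.54 and 0.44 in C2 and -0.27 and -0.44 in C3. The whole range was from -0.44 to 0.56, with A and C2 above the other 3 types.

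Jun (16476, chr4:95049036-95052222), the main partner of the Fos proteins, followed Fosb. Its values were 0.64 and 1.41 in A and 1.54 and 1.66 in B. They were -0.83 and -1.14 in C1, 0.20 and -0.34 in C2, with -0.28 and -0.20 in C3. C1 was lowest, B highest, and C2 and C3 overlapped.

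Junb (16477, chr8:84976909-84978748), a Jun protein that can restrain Jun, was 1.01 and 1.48 in A and 1.11 and 1.24 in B. In the passaged cells it was -0.08 and -0.44 in C1, 0.08 and -0.71 in C2, with -0.25 and -0.32 in C3. The 4 primary libraries stood above the 6 passaged ones, and the 3 C types overlapped.

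Jund (16478, chr8:70697739-70700616), the Jun gene least dependent on stimulation, had another order. It was -0.05 and 0.84 in A, 0.33 and 0.49 in B, with 0.07 and -0.18 in C1. It was 0.05 and -0.95 in C2 and -1.78 and -1.87 in C3. Both C3 libraries were lowest and lay close together, while the C2 libraries were 1.01 apart.

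Atf3 (11910, chr1:191170296-191183333), a stress-induced factor that pairs with Jun and often represses, was set apart by B. It stood at 5.35 and 5.26 in B, against -1.89 and 0.72 in A. It was 0.63 and -0.68 in C1, -1.37 and -0.63 in C2, with -1.53 and 0.66 in C3. The 8 libraries outside B overlapped among all 4 types.

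Maff (17133, chr15:79346621-79359078), a small Maf protein without an activation domain that pairs with Fos and with Nrf proteins, stayed between -0.42 and 0.76. It was -0.04 and 0.27 in A, 0.11 and -0.08 in B, with -0.18 and 0.04 in C1. C2 held -0.11 and -0.42, and C3 held 0.25 and 0.76. Replicate 2 of C3 was the highest library, and C3 replicate 1 lay within the range of A.

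The first comparison set the primary types B and A against each other, which differed in digestion strength and in the CD45 sort together. Atf3 was higher in B than in A and Fosl1 was lower, and the other 7 genes were not called. Atf3 differed by 5.89 ± 1.01 on the log2 scale (SE, n = 2 libraries per type, 95% interval 3.50 to 8.28), which is 59.4-fold, with an adjusted p of 0.00394 from limma. Fosl1 was 4.60-fold lower in B, by -2.20 ± 0.51 (-3.40 to -1.001, adjusted p = 0.0130). Calls needed an adjusted p under 0.05 together with a log2 difference of at least 1, and 2 of 9 genes met this, against 26.9% of all genes tested (14.5% higher, 12.4% lower). Such a share is near the background. The median difference of the 9 genes was 0.02, beside 0.01 for all genes tested. For Fosb (0.94, -0.03 to 1.90, adjusted p = 0.110), Jun (0.58, -0.11 to 1.27) and Fos (0.35, -1.13 to 1.83) the intervals included 0. These intervals use a spread shared by all types, and the Fosb replicates were 1.21 apart in C1, 0.21 in A and 0.10 in B. With A and B fitted alone, the limma adjusted p was 0.0418 for Fosb, 0.280 for Jun and 0.161 for Fos. Fosb then passed the p threshold but not the minimum fold.

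Atf3 in B moved together with the macrophage markers, of which 14 of 14 were called higher in B than in A. Of the other marker lists, 8 of 12 fibroblast markers were lower in B (median -1.54), 6 of 10 epicardial and mesothelial markers higher (median 3.64), and endothelial markers were higher for 1 and lower for 1 of 7. Within A, the library with more macrophage RNA, replicate 2, had more Atf3 (0.72 against -1.89), and 8 of 9 AP-1 genes were higher there. Similar Atf3 values stood in C1 replicate 1 (0.63) and C3 replicate 2 (0.66), whose macrophage marker means were 0.09 and -0.995. The part of macrophage RNA in the Atf3 values was not tested. The difference of Atf3 was 7.20 without A replicate 2 (adjusted p = 0.00176) and 4.59 without A replicate 1 (adjusted p = 0.0117), so it kept its call either way. After quantile normalization it was 3.42 (adjusted p = 0.0354). Fosl1 lost its call when A and B were fitted alone (adjusted p = 0.0833) and without B replicate 2 (-1.89, adjusted p = 0.0813), and it was -1.53 without A replicate 2 and -2.87 without A replicate 1.

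**Figure D2:**
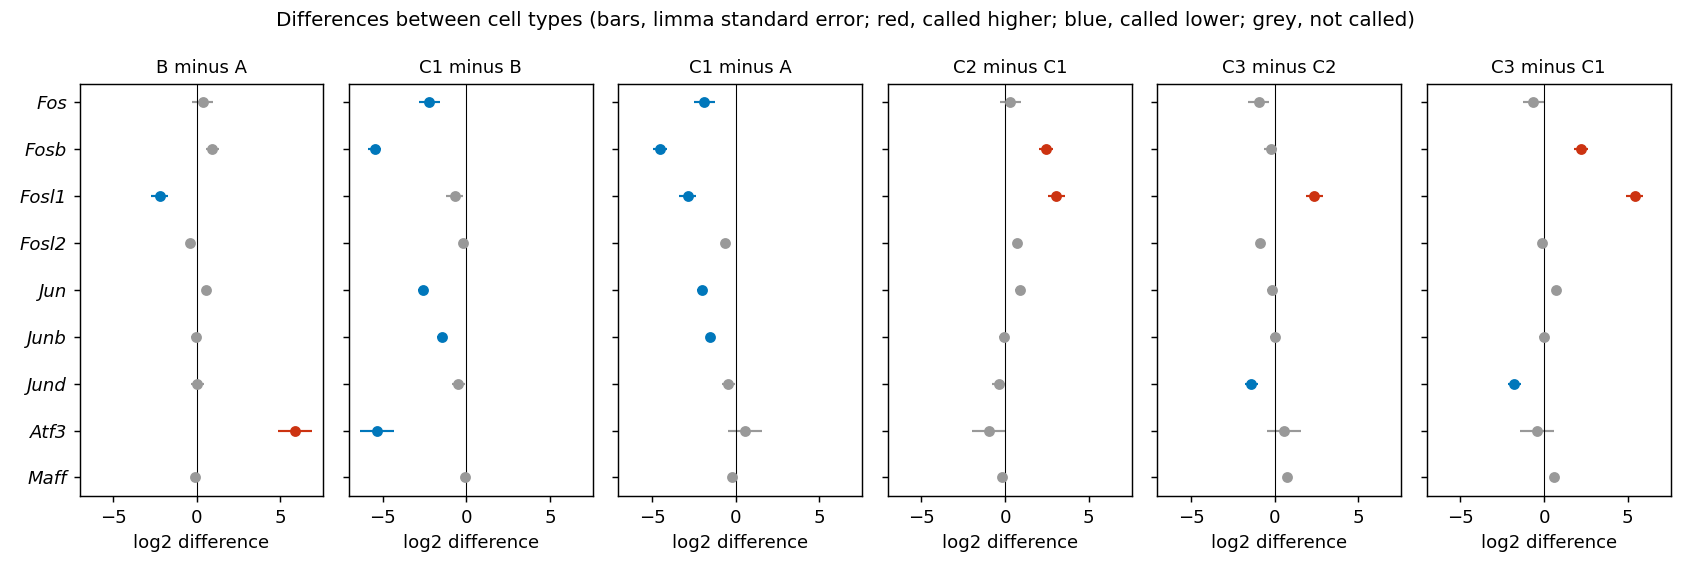
Log2 difference between the 2 cell types named above each panel, for the 9 genes, with bars of 1 limma standard error (n = 2 libraries per type). The standard error is estimated over all 5 types, so each gene has the same bar in every panel. Red points were called higher, blue lower and grey not called. In the C1 panels against B and A, 5 genes each are called lower, and Fosl1 is called higher in all 3 panels of later passages, up to 5.44 for C3 minus C1. That last difference is the sum of the other 2 and not a separate result.

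The lists around AP-1 are read here beside the 14.5% of all genes called higher and 12.4% called lower. Of 22 partners and other leucine zipper factors, 5 were called higher (22.7%) and 3 lower (13.6%) in B. Maf, a large Maf factor that macrophages also express, rose by 5.50 ± 0.37 (adjusted p = 0.000113). Of 35 textbook AP-1 target genes, 9 were higher and 7 lower. The secreted proteases Mmp12, or macrophage elastase, and Mmp9 rose by 9.62 ± 2.05 (adjusted p = 0.00950) and 6.63 ± 1.54 (adjusted p = 0.0136), and macrophages are known to make both. Within A, Mmp12 was -1.86 and 5.73 and Mmp9 was at the floor of the table in replicate 1 and 4.48 in replicate 2. Of 22 other immediate early genes, 2 were higher and 4 lower, with the orphan nuclear receptors Nr4a2 and Nr4a1 down by -1.86 ± 0.24 (adjusted p = 0.00125) and -1.63 ± 0.37 (adjusted p = 0.0124). Of 15 feedback genes, phosphatases and Sprouty or Spred proteins that MAP kinases switch on and that then restrain them, 1 was higher and 3 were lower. Spry4 fell by -2.47 ± 0.44 (adjusted p = 0.00445) and the phosphatase gene Dusp4 by -2.39 ± 0.28 (adjusted p = 0.000933). Of 19 kinases and nuclear regulators upstream of AP-1, 2 rose, the ribosomal S6 kinase genes Rps6ka1 (3.05 ± 0.36, adjusted p = 0.000946) and Rps6ka3 (1.35 ± 0.17, adjusted p = 0.00116). Of 12 heat shock genes, which tissue dissociation is known to induce, 1 was lower: Hspa1b, by -1.48 ± 0.47 (adjusted p = 0.0437). The list medians were 0.36 for the partners, 0.10 for the targets, -0.03 for the immediate early genes, -0.45 for the feedback genes, -0.07 for the upstream list and -0.26 for the heat shock genes. Some of these calls were lost in alternatives: Mmp12 and Mmp9 without either B library, after quantile normalization and with A and B alone, Nr4a1 without A replicate 1 (-1.34, adjusted p = 0.0533) or either B library, Spry4 with A and B alone (adjusted p = 0.0669), and Hspa1b without any 1 of the A, B, C2 or C3 libraries and under other settings. Without A replicate 1, Mmp12 was 5.83 and Mmp9 3.79, both still called, and Rps6ka1 was 2.01 after quantile normalization.

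The second comparison followed B-type cells into culture, from B to C1 at passage 6. Fosb, Jun, Junb, Fos and Atf3 were all lower in C1, and the differences of the other 4 genes were also negative but not called. Fosb was 44.5-fold lower, by -5.47 ± 0.41 (-6.44 to -4.51, adjusted p = 8.78e-05). Jun was 6.01-fold lower, by -2.59 ± 0.29 (-3.28 to -1.90, adjusted p = 0.000482), and Junb was 2.70-fold lower, by -1.43 ± 0.29 (-2.12 to -0.75, adjusted p = 0.00582). Atf3 was 40.3-fold lower, by -5.33 ± 1.01 (-7.72 to -2.94, adjusted p = 0.00433). Fos was 4.64-fold lower, by -2.21 ± 0.63 (-3.70 to -0.73, adjusted p = 0.0226). The 5 of 9 genes called lower are 55.6%, against 33.7% of all genes called in either direction, 21.1% lower and 12.6% higher. The median over the 9 genes was -1.43, beside -0.07 over all genes tested. Fosl1 (-0.67, -1.87 to 0.53), Jund (-0.47, -1.38 to 0.45), Fosl2 (-0.21, -0.59 to 0.17) and Maff (-0.08, -0.62 to 0.45) were not called.

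Of the 5 genes, Fosb, Jun and Junb kept their call under every alternative setting listed in the closing section. Fos lost it when B and C1 were fitted alone (adjusted p = 0.0886), after quantile normalization (-1.63, adjusted p = 0.0629), without B replicate 1 (adjusted p = 0.0910) and without B replicate 2 (adjusted p = 0.0831). It was -1.16 without C1 replicate 2 and -3.27 without C1 replicate 1. Atf3 lost it after quantile normalization (-2.60, adjusted p = 0.0643), which left 3 of 9 genes called. That scaling also moved the split of all calls from 1799 higher and 3005 lower to 2290 higher and 2240 lower. All 14 macrophage markers were lower in C1. Of 7 endothelial markers 6 were lower and 1 higher, and of 12 fibroblast markers 4 were lower and 2 higher. Lower, too, were 4 of 10 epicardial and mesothelial and 3 of 7 smooth muscle markers, with 0 higher in either list. These counts stand beside 21.1% of all genes called lower and 12.6% higher. The part of cell makeup in the AP-1 differences was not tested.

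Among all genes tested, too, more were called lower (21.1%) than higher (12.6%) in C1, and the lists are read beside these shares. Quantile normalization, which gives every library the same distribution of values, removed this lean. The source of the lean was not tested. Of 22 other immediate early genes 12 were lower (54.5%) and 0 higher, with a median of -1.03, led by the nuclear receptor gene Nr4a3 (-3.73 ± 0.34, adjusted p = 0.000197) and the zinc finger gene Egr2 (-3.16 ± 0.59, adjusted p = 0.00423). Of 15 feedback genes 7 were lower (46.7%) and 0 higher (median -1.06), and the largest differences were in Dusp8 (-2.86 ± 0.39, adjusted p = 0.00108) and Dusp1 (-2.66 ± 0.69, adjusted p = 0.0164), phosphatases of the stress kinases. Dusp1 was 1.65 and 1.67 in B and 0.22 and -2.21 in C1. Its difference was -1.44 without C1 replicate 2, and its call was lost with B and C1 alone (adjusted p = 0.0804), after quantile normalization (-1.97, adjusted p = 0.0507) and without B replicate 1 (adjusted p = 0.0696) or 2 (adjusted p = 0.0704). Of 35 AP-1 targets 20 were lower (57.1%) and 4 higher (median -1.69). Mmp12 had the largest difference, -11.5 ± 2.05 (adjusted p = 0.00333), and Mmp9 went from 8.06 and 8.48 in B to C1 libraries at or within 1 read of the floor of the table. Of 22 partners 9 were lower (40.9%) and 1 higher (median -0.44), among them the AP-1 partner Batf, whose C1 libraries were both at the floor of the table. Of 19 upstream kinases and regulators 3 were lower (15.8%, under the share of all genes) and 0 higher (median 0.02), including Rps6ka1 (-3.52 ± 0.36, adjusted p = 0.000334) and the ERK1 gene Mapk3 (-1.38 ± 0.18, adjusted p = 0.000786). The heat shock list went the other way: 3 of 12 were higher and 0 lower (median 0.40), with the small chaperone gene Hspb1 up by 1.62 ± 0.24 (adjusted p = 0.00151) and the mitochondrial chaperonin gene Hspd1 up by 1.14 ± 0.19 (adjusted p = 0.00253). After quantile normalization Mmp12 was -7.01, Mmp9 -5.33, Batf -3.81 and Hspb1 2.58, all still called.

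**Figure D3:**
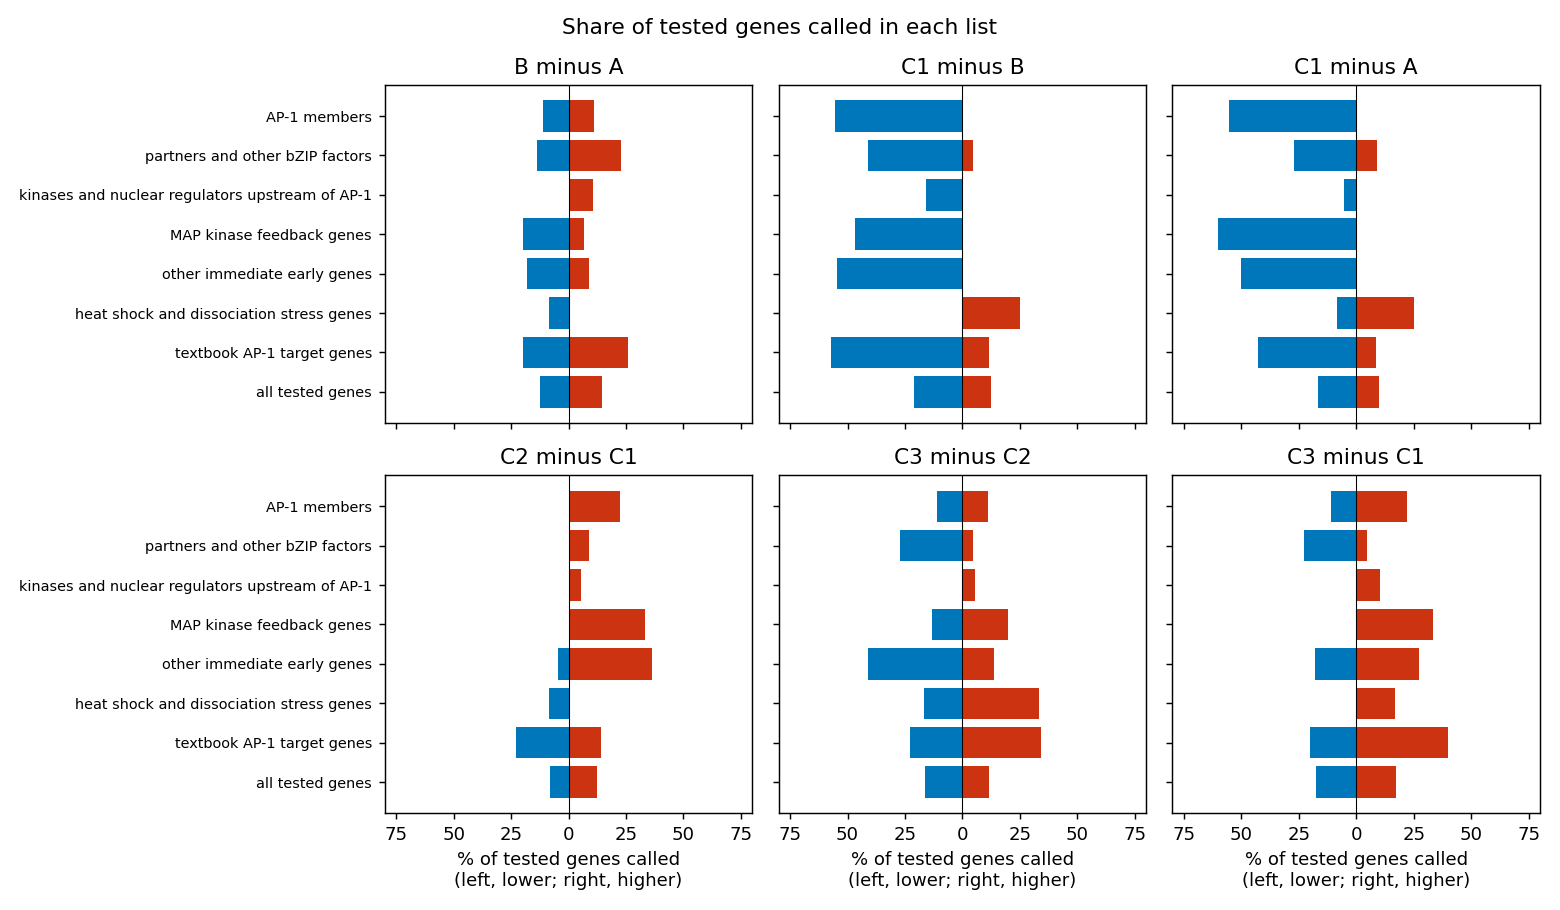
Share of tested genes (%) called lower (left, blue) and higher (right, red) in each list and among all genes tested, 1 panel per comparison. For C1 minus B, 54.5% of other immediate early genes and 57.1% of textbook AP-1 targets were called lower, beside 21.1% of all genes tested.

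The third comparison set C1 against A, both sorted as c-kit+ and CD45-. The 2 types still differed in passage and in origin, since C1 was grown on from weakly digested B cells, and these cannot be told apart. Fosb, Fosl1, Jun, Fos and Junb were lower in C1, and Atf3 was the 1 gene with a positive difference, not called. Fosb was 23.2-fold lower, by -4.54 ± 0.41 (-5.50 to -3.58, adjusted p = 0.000371), and Fosl1 7.33-fold lower, by -2.87 ± 0.51 (-4.07 to -1.67, adjusted p = 0.00451). Jun was lower by -2.01 ± 0.29 (-2.70 to -1.32, adjusted p = 0.00214) and Junb by -1.51 ± 0.29 (-2.19 to -0.82, adjusted p = 0.00630). Fos was lower by -1.86 ± 0.63 (-3.35 to -0.38, adjusted p = 0.0484). The share of 55.6% called lower stands beside 26.6% of all genes called, of which 16.6% were lower and 10.1% higher. The median of the 9 genes was -1.51, beside -0.04 for all genes tested. Fosl2 passed the p threshold but not the minimum fold (-0.62 ± 0.16, adjusted p = 0.0189). Atf3 was 0.56 (-1.83 to 2.95), Jund -0.45 (-1.36 to 0.47) and Maff -0.19 (-0.73 to 0.34).

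Fos was at the edge of the threshold here. It lost its call under 12 alternatives, among them A and C1 alone (adjusted p = 0.192), A replicate 2 left out (-1.87, adjusted p = 0.112) and C1 replicate 2 left out (-0.80, adjusted p = 0.137). Without C1 replicate 1 it was -2.92 (adjusted p = 0.00372). The other 4 calls held without A replicate 2, the A library with the higher macrophage marker mean: Fosb was then -4.43, Fosl1 -2.20, Jun -1.62 and Junb -1.27. These 4 also kept their call under every other alternative setting. Replicate 1, which then stood alone for A, still had Ptprc at 2.74, so the part of macrophage RNA was not tested by this. In this comparison 5 of 14 macrophage, 8 of 12 fibroblast and 5 of 7 endothelial markers (medians -3.46, -2.17 and -4.03) were called lower. Of 7 smooth muscle markers 4 were lower and 1 higher, and of 10 epicardial and mesothelial markers 5 were higher and 2 lower. Quantile normalization moved the split of all calls from 1433 higher and 2365 lower to 2217 higher and 2105 lower. C1 entered this comparison and the second, so the lower values against A and against B rest on the same C1 libraries.

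Against A, 9 of 15 feedback genes were lower (60%) and 0 higher in C1 (median -1.88), beside 16.6% and 10.1% of all genes. Spry4 was lower by -3.10 ± 0.44 (adjusted p = 0.00189) and Dusp4 by -3.05 ± 0.28 (adjusted p = 0.000428). Of the other immediate early genes 11 of 22 were lower and 0 higher (median -1), led by Nr4a3 (-3.83 ± 0.34, adjusted p = 0.000363) and Egr3 (-3.05 ± 0.19, adjusted p = 9.92e-05). Of the AP-1 targets 15 of 35 were lower and 3 higher (median -1.22). The follistatin gene Fst, an inhibitor of activin, was lower by -4.64 ± 0.41 (adjusted p = 0.000349), and the collagenase gene Mmp13 was higher by 5.29 ± 1.14 (adjusted p = 0.00984). Of the partners 6 of 22 were lower and 2 higher (median -0.46), with Maf higher by 2.98 ± 0.37 (adjusted p = 0.00119). Of the upstream list 1 of 19 was lower (median 0.06), Srf, the gene of serum response factor, by -1.10 ± 0.24 (adjusted p = 0.0106). Of the heat shock genes 3 of 12 were higher and 1 lower (median -0.16), with Hspb1 up by 1.59 ± 0.24 (adjusted p = 0.00243) and the inducible Hsp70 gene Hspa1a down by -1.42 ± 0.45 (adjusted p = 0.0387). Calls were lost for Srf without C1 replicate 2 (-0.99, adjusted p = 0.0632), for Spry4 with A and C1 alone (adjusted p = 0.0513) and for Mmp13 with these alone (adjusted p = 0.102) or without C1 replicate 2 (4.82, adjusted p = 0.0585). Mmp13 was 3.29 without A replicate 1. Hspa1a lost its call without either A or either B library and under other settings, and was -0.74 without C1 replicate 2 (adjusted p = 0.157). Hspb1 was 2.59 after quantile normalization.

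From C1 at passage 6 to C2 at passage 8, both sorted as CD45- but differing in c-kit, Fosl1 and Fosb were higher. Fosl1 was 8.29-fold higher, by 3.05 ± 0.51 (1.85 to 4.25, adjusted p = 0.00470), and Fosb 5.43-fold higher, by 2.44 ± 0.41 (1.48 to 3.40, adjusted p = 0.00471). Both kept their call under every alternative setting. Jun (0.91 ± 0.29, adjusted p = 0.0483) and Fosl2 (0.70 ± 0.16, adjusted p = 0.0149) passed the p threshold but not the minimum fold. The 22.2% of genes called higher stands beside 20.4% of all genes called (12.2% higher, 8.18% lower), and the median of the 9 was 0.31, beside 0. Fos was 0.31 (-1.17 to 1.80), and without C1 replicate 1 it was 1.37 with a call (adjusted p = 0.0423). Atf3 (-0.97, -3.36 to 1.42), Jund (-0.39, -1.31 to 0.52), Maff (-0.19, -0.73 to 0.34) and Junb (-0.06, -0.74 to 0.63) were not called. Quantile normalization moved the split of all calls from 1740 higher and 1166 lower to 1948 higher and 2014 lower.

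Several of the immediate early and feedback genes that were low in C1 were higher in C2. Of the immediate early list 8 of 22 were higher (36.4%) and 1 lower (4.55%), with a median of 0.70, beside 12.2% and 8.18% of all genes. Nr4a3 was -3.29 and -3.53 in the C1 libraries and 0.28 and 0.16 in C2, a difference of 3.63 ± 0.34 (adjusted p = 0.000558). Arc, which encodes a cytoskeleton-associated protein best known from neurons, was -1.41 and -2.85 in C1 and 1.61 and 1.36 in C2 (3.62 ± 0.42, adjusted p = 0.00116). Of the feedback genes 5 of 15 were higher and 0 lower (median 0.74), with Spry4 up by 2.71 ± 0.44 (adjusted p = 0.00411) and Dusp5, a phosphatase of nuclear ERK, by 2.35 ± 0.33 (adjusted p = 0.00244). The AP-1 targets had no common direction, with 5 of 35 higher and 8 lower (median 0): Fst was higher by 3.37 ± 0.41 (adjusted p = 0.00140), and the cell cycle inhibitor gene Cdkn2a was lower by -3.73 ± 0.30 (adjusted p = 0.000334). Of the partners 2 of 22 were higher and 0 lower (median -0.05), Maf by 1.34 ± 0.37 (adjusted p = 0.0295) and Batf from the floor of the table. Of the upstream list 1 of 19 was higher (median -0.14), Rps6ka1 by 1.45 ± 0.36 (adjusted p = 0.0211). Of the heat shock list 1 of 12 was lower (median -0.11), Hspb1 by -2.39 ± 0.24 (adjusted p = 0.000705). The macrophage marker mean was 0.09 and -0.28 in C1 and -0.74 and -0.53 in C2, and fibroblast markers were higher for 5 of 12 and lower for 2. Epicardial and mesothelial markers were higher for 4 of 10 and smooth muscle markers for 3 of 7. Maf lost its call without any 1 of the B, C1 or C2 libraries (1.09 to 1.59) and was 2.08 after quantile normalization. Batf lost it without either C1 library or C2 replicate 1, with C1 and C2 alone and after quantile normalization, and Rps6ka1 without C1 replicate 2 or either C2 library. Hspb1 was -3.71 after quantile normalization.

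From C2 to C3 at passage 10, Fosl1 was higher again and Jund was lower. Fosl1 was 5.23-fold higher, by 2.39 ± 0.51 (1.18 to 3.59, adjusted p = 0.00867), and Jund 2.60-fold lower, by -1.38 ± 0.39 (-2.29 to -0.46, adjusted p = 0.0253). Fosl2 (-0.85 ± 0.16, adjusted p = 0.00540) and Maff (0.77 ± 0.23, adjusted p = 0.0296) passed the p threshold but not the minimum fold. The 2 of 9 called stand beside 27.9% of all genes called (11.6% higher, 16.2% lower), and the median was -0.17, beside 0. Fos was -0.96 (-2.44 to 0.53), Atf3 0.57 (-1.82 to 2.96), Fosb -0.23 (-1.20 to 0.73), Jun -0.17 (-0.86 to 0.52) and Junb 0.03 (-0.66 to 0.72), and none of these was called.

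Both calls between C2 and C3 were lost without 1 or another single library. Fosl1 lost its call without C2 replicate 2 (1.98, adjusted p = 0.0531) and without C3 replicate 2 (2.03, adjusted p = 0.0577). Jund lost it with these types alone (adjusted p = 0.0774), after quantile normalization (-0.58, adjusted p = 0.348), without C2 replicate 1 (-0.87, adjusted p = 0.125), without C3 replicate 1 (adjusted p = 0.0862) and without C3 replicate 2 (adjusted p = 0.105). Maff was called higher without C3 replicate 1 (1.03, adjusted p = 0.0240). Quantile normalization moved the split of all calls from 1656 higher and 2315 lower to 2079 higher and 1865 lower. Of the cell markers, 11 of 12 fibroblast markers were lower and 6 of 10 epicardial and mesothelial markers higher in C3, beside the deeper sequencing of both C3 libraries.

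More immediate early genes were lower than higher in C3. Of 22 such genes 9 were lower (40.9%) and 3 higher (13.6%) than in C2 (median -0.16), beside 16.2% and 11.6% of all genes, with Egr2 down by -3.74 ± 0.59 (adjusted p = 0.00268) and Nr4a1 by -3.64 ± 0.37 (adjusted p = 0.000509). Of the feedback genes 3 of 15 were higher and 2 lower (median 0.24): Dusp5 rose by 1.84 ± 0.33 (adjusted p = 0.00436) and Spry4 fell by 1.84 on the log2 scale (adjusted p = 0.0133). Of the AP-1 targets 12 of 35 were higher and 8 lower (median 0), and the 2 with the largest differences were lower, Cdkn2a by -4.90 ± 0.30 (adjusted p = 8.42e-05) and the stromelysin gene Mmp3 by -4.89 ± 0.23 (adjusted p = 3.58e-05). Of the partners 6 of 22 were lower and 1 higher (median -0.20), with Maf down by -3.60 ± 0.37 (adjusted p = 0.000513). Of the upstream list 1 of 19 was higher (median 0.25), Rps6ka3 by 1.02 ± 0.17 (adjusted p = 0.00333). Of the heat shock genes 4 of 12 were higher and 2 lower (median 0.80), and the lower ones were Hspa1a (-2.11 ± 0.45, adjusted p = 0.00847) and Hspa1b (-1.83 ± 0.47, adjusted p = 0.0185), near-identical copies between which the counting could have split reads. Hspa1a and Hspa1b lost their calls without C2 replicate 1 or C3 replicate 2, Spry4 without C3 replicate 1 or either C2 library, and Rps6ka3 fell under the minimum fold without C2 replicate 1 (0.96). After quantile normalization Cdkn2a was -2.48, Mmp3 -2.46 and Spry4 -2.89.

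Over the whole course from C1 to C3, Fosl1 was 43.3-fold higher, by 5.44 ± 0.51 (4.24 to 6.64, adjusted p = 0.000187). Fosb was 4.62-fold higher, by 2.21 ± 0.41 (1.25 to 3.17, adjusted p = 0.00366), and Jund 3.42-fold lower, by -1.77 ± 0.39 (-2.69 to -0.86, adjusted p = 0.00759). The 3 of 9 called are 33.3%, beside 34.8% of all genes called (17.1% higher, 17.7% lower), and the median of the 9 was -0.03, beside 0. Such a share is that of the background. Jun (0.74, 0.05 to 1.43, adjusted p = 0.0687), Maff (0.58, 0.04 to 1.11, adjusted p = 0.0679) and Fos (-0.64, -2.12 to 0.84) were not called, and neither were Atf3 (-0.40, -2.79 to 1.99), Fosl2 (-0.14, -0.52 to 0.24) and Junb (-0.03, -0.71 to 0.66). Fosl1 kept its call under every alternative, between 5.08 and 5.80 where a C1 or C3 library was left out. Fosb lost its call with C1 and C3 alone (adjusted p = 0.0551), Jund after quantile normalization (-1.16, adjusted p = 0.0723), and Fos gained one without C1 replicate 2 (-1.70, adjusted p = 0.0123). Epicardial and mesothelial markers were higher for 8 of 10 in the same comparison, and fibroblast markers lower for 7 of 12 and higher for 1.

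Between C1 and C3 the immediate early, target and partner lists held calls in both directions, as did all genes (17.1% higher, 17.7% lower). The feedback, upstream and heat shock lists held only calls that were higher. Of the feedback genes 5 of 15 were higher and 0 lower (median 0.88), with Dusp5 up by 4.20 ± 0.33 (adjusted p = 9.36e-05) and Dusp8 by 2.50 ± 0.39 (adjusted p = 0.00177). Of the immediate early genes 6 of 22 were higher and 4 lower (median 0.27): Ctgf, which encodes a matrix protein of wound repair, rose by 3.13 ± 0.19 (adjusted p = 3.83e-05), and Klf2, a factor of quiescent endothelium, fell by 3.60 on the log2 scale (adjusted p = 0.000773). Of the AP-1 targets 14 of 35 were higher and 7 lower (median 0.18), and Cdkn2a was lower by -8.63 (adjusted p = 5.76e-06) and Mmp3 by -7.96 (adjusted p = 3.17e-06). Of the partners 5 of 22 were lower and 1 higher (median -0.24), among them Cebpb (-2.28 ± 0.46, adjusted p = 0.00522). Srf (1.54 ± 0.24, adjusted p = 0.00188) and the MEK1 gene Map2k1 (1.15 ± 0.13, adjusted p = 0.000467) were the 2 of 19 upstream genes that rose (median 0.11). Of the heat shock genes 2 of 12 rose (median 0.53), Hsph1 by 1.47 ± 0.22 (adjusted p = 0.00136) and Hsp90aa1 by 1.11 ± 0.14 (adjusted p = 0.000752).

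Among themselves, the 9 genes followed more than 1 pattern over the 10 libraries. Pearson's r was 0.959 for Fosb and Jun, 0.907 for Jun and Junb, 0.851 for Fos and Junb and 0.824 for Fos and Fosb. Jund followed Junb with r = 0.728 and Fos with r = 0.724. Fosl1 had an r of -0.665 with Jund, -0.417 with Fos, -0.039 with Jun and 0.622 with Maff. These values describe 10 libraries of 5 types, which share cell makeup and depth, and replicates of a type are not separate points for such a measure.

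The tested genes most like each member were also read by Pearson's r over the 10 libraries. They were picked as the highest among 14253 genes tested, so part of the height of r comes from the picking. Pearson's r also takes no account of how far a gene ranges. Dusp5 was the most like Fosl1 (r = 0.990), followed by Gars (0.978) and Slc7a1 (0.971). Dusp5 stood at -0.07 and 0.86 in A, -0.90 and -1.30 in B, with -1.95 and -2.21 in C1. It was 0.47 and 0.07 in C2 and 1.98 and 2.26 in C3, the same order of types as Fosl1 by mean except that A and C2 changed places. For Fosb the nearest were Prune and Lipe (both 0.986) and Abcd3 (0.983), and for Jun they were Ppard (0.984), Ppp1r12c (0.983) and Plekhm2 (0.976). On the log2 scale Prune ranged over 0.98, beside 6.13 for Fosb, and Ppard over 0.94, beside 2.80 for Jun. For Fos they were Cxcl5 (0.939), Tgm1 (0.934) and Ccdc28b (0.926), and for Junb Pcbd1 (0.980), AI661453 (0.977) and Limk1 (0.977). Fosl2 was most like the collagen genes Col1a1 (0.981) and Col4a1 (0.971) and Zfp532 (0.967). Jund was most like Ptpru (0.971), Hmg20b (0.961) and Anks1 (0.957), Atf3 like Pkd1l2 (0.983) and Neurl3 (0.981), and Maff like Slc39a6 (0.940), Abtb2 (0.927) and Tnfrsf22 (0.922).

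**Figure D4:**
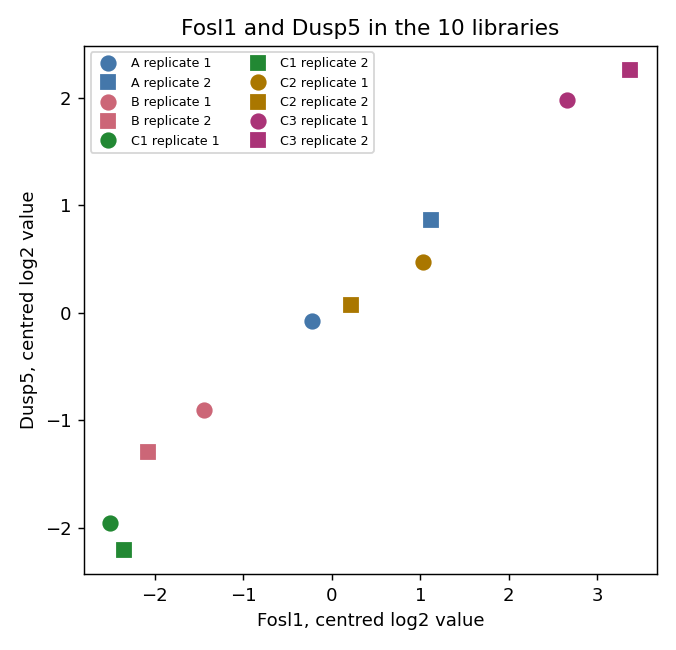
Fosl1 (horizontal axis) and Dusp5 (vertical axis) in the 10 libraries, both as deposited log2 values centred on the median of the gene; colours are cell types, circles replicate 1 and squares replicate 2. Both C1 libraries lie at the lower left and both C3 libraries at the upper right (r = 0.990, n = 10 libraries).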

How the data were processed

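Total RNA of 10 samples was made into TruSeq libraries, which do not mark strand, per the labels' protocols. TopHat, DESeq and the build mm10 are named in the submitters' processing notes, with no version or role, and for the read counter and annotation the sources used here give nothing. As to units, the deposited values are on a log2 scale, and from the values they were read as normalized reads with a floor of 1 and with the median of each gene taken away, which holds for 17821 genes with values. Another 18334 genes are 0 throughout, and 17 with an unreadable cell were left out. Whole reads were found for only 32.9% to 70.5% of low values per library, so no count test was run.

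A planned pseudocount was not added, since the values were logarithms. The filter (10 normalized reads in 2 libraries) acts only on genes with a known level and left 14253. limma 3.58.1 (R 4.3.3) was fitted to all 10 libraries with a mean per type, 5 residual degrees of freedom and no trend, after a check on simulated data, with two-sided Benjamini-Hochberg adjustment within each of 6 comparisons. The 9 genes, the lists, the tests and the rule for named genes were chosen with earlier results of these data known. That rule takes all 9 genes, at most the 2 called genes per list and comparison with the largest difference, and the 3 genes most like each member. Some genes that the rule takes are not reported here. Alternatives were the types compared alone, other scalings, other filters and folds, a replicate block and each library left out. With 2 libraries per type the precision of every comparison is limited. The fit shares 1 spread per gene among the types, while replicates of A differed most. Their root mean square difference over all genes tested was 1.06, beside 0.435 to 0.520 in the other types. The p-values of comparisons with A may therefore be too small.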

Additional observations from a re-analysis of the deposited data

How the results depend on the processing

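Over all alternatives, 839 of 900 differences of the 9 genes kept their direction and their side of the threshold. Of the others, 25 changed sign without a call before or after, 28 lost a call, 8 gained one and 0 called differences reversed. In many alternatives the difference could not change, for example with a library of a type not compared left out. There only the adjusted p could change. Some alternatives also repeat each other, such as either A library left out in comparisons without A. These counts therefore overstate how far the directions were put to the test. With only the compared types fitted, 1 of 9 genes was called for B against A and 1 for C3 against C2, and all genes called numbered 2538 for B against A and 2375 for C1 against A. Quantile normalization left 3 of 9 genes for C1 against B and 1 for C3 against C2. Without a minimum fold, 4 of 9 were called for C2 against C1 and 4 for C3 against C2, and all genes called numbered 7336 (C1 against B), 6201 (C1 against A), 5025 (C2 against C1), 6358 (C3 against C2) and 7483 (C3 against C1). With single libraries left out, the members called ranged from 1 to 2 for B against A and from 0 to 2 for C3 against C2. They ranged from 4 to 5 for C1 against B and C1 against A, from 2 to 3 for C2 against C1 and from 3 to 4 for C3 against C1. Where a type was left with 1 library, that library was assumed to vary like the others.

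In the labels, same-numbered libraries share only a replicate number. Their deviations correlated between -0.061 and 0.089 over 10 pairs of types, which does not tell whether they share an animal or dish. With a replicate block the members called were 2, 5, 5, 2, 2 and 3 in the order of the report, as without it, and all genes called were 3814, 4774, 3759, 2865, 3936 and 4926. The level of none of the 9 genes is known, so which of their values are limited by depth is not known.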

Other observations

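The 2 libraries of a type did not differ equally for AP-1 genes in all types. In C1, 3 of 9 genes differed between replicates by at least 1 on the log2 scale (Fos, Fosb and Atf3, chosen after their values were seen), beside 5.82% of all genes tested. In A, 2 of 9 did, beside 18.1% of all, in B 0 of 9, beside 5.61%, in C2 1 of 9, beside 5.95%, and in C3 1 of 9, beside 4.04%. The root mean square difference between replicates over the 9 genes was 1.08 in A, 0.244 in B, 0.946 in C1, 0.616 in C2 and 0.871 in C3. Over all genes tested it was 1.06, 0.516, 0.489, 0.520 and 0.435 in the same order.

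Other immediate early genes leaned towards 1 library in some types. In C2, 20 of 22 were higher in replicate 1, with a median difference of 0.15, while 49.5% of all genes tested were higher there. In C1, 16 of 22 were higher in replicate 1, as were 6 of 9 AP-1 genes, beside 46.9% of all genes tested. The AP-1 count was also 6 of 9 in B and in C2, while in B 9 of 22 immediate early genes were higher in replicate 1. In A, 16 of 22 immediate early genes, 8 of 9 AP-1 genes and 32 of 35 AP-1 targets were higher in replicate 2. That library had more macrophage RNA, and 7052 of all 14253 genes tested were higher in it. In C3, all 12 heat shock genes were higher in replicate 1, with a median difference of 0.38, beside 50.5% of all genes tested. Of the AP-1 targets 24 of 35 were higher in replicate 2 of C3, beside 6345 of all 14253 genes tested. These are descriptions of single pairs of libraries, with no test.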
